A study of Mus musculus with 2 samples.

Results

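The genes described here are 36 genes of the unfolded protein response and of protein folding in the endoplasmic reticulum (ER), chosen by symbol. The choice was made with earlier results of these data known. All 36 were among the 23197 genes listed in both count matrices. By role they comprised 3 stress sensors, 4 transcription factors and integrated stress targets, 9 ER chaperones and partners of the chaperone BiP, 2 lectin chaperones, 7 disulfide and proline isomerases, 8 genes of ER-associated degradation and 3 genes of translocation and signal peptide handling.

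The study profiled single cells of the mouse colon after dextran sulfate sodium (DSS), a polymer given in drinking water that injures the colonic epithelium, to ask what the transcription factor ELF-1 does to expression in colitis. One library came from DSS-treated wild-type C57BL/6 mice (WT) and 1 from DSS-treated Elf-1-/- mice of the same strain (labelled Elf-1 KO), all 8-10 weeks old. Each library pooled the proximal colon, distal colon and rectum cells of 3 mice, and cells cannot be traced to a mouse. Which part of Elf1 was deleted, and the dose and days of DSS, are not stated in the sources at hand. With 1 library per group there are no replicates: no test between groups is possible, and all intervals below (95%) cover counting error only.

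The ER folds proteins that are to be secreted or placed in membranes. When unfolded protein accumulates there, the sensors IRE1 (Ern1), PERK (Eif2ak3) and ATF6 (Atf6) signal to the nucleus, where spliced XBP1, ATF4 and cleaved ATF6 raise chaperones, isomerases and degradation genes. Cells that secrete heavily depend on this machinery: XBP1 is needed for plasma cells to make antibody, goblet cells for making mucin carry a large ER, and fibroblasts fold procollagen there.

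The promoters of several of these genes carry the sequence through which ATF6 and XBP1 act. RefSeq promoter windows (GRCm38.p6, 250 bases before to 50 bases after a gene's start) were at hand for 31 of the 36 members. The ER stress response element, searched on both strands as CCAAT, 9 bases of any kind and CCACG, was found in 9 of them (29.0%): Calr, Canx, Creld2, Derl3, Dnajc3, Hsp90b1, Hspa5, Pdia6 and Syvn1. Of all 27025 genes with a window, 37 (0.137%) held it. A second form, ATTGG, 1 base of any kind and CCACG, was found in Dnajb11 and Herpud1 (6.45% of members against 0.0444% of genes), the XBP1 element TGACGTGG in Txndc5 (3.23% against 0.714%), and the amino acid response element TGATGCAA bound by ATF4 in Herpud1 (3.23% against 1.03%). The 8 stretches printed here belong to members whose levels the results below turn on. Each is written 5′ to 3′ along the gene's own strand, and capitals mark the match, which reads from CGTGG to ATTGG where the first element lies on the opposite strand. A match describes the letters in the window and shows no binding.

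Hspa5, chr2:34772010-34772058, plus strand: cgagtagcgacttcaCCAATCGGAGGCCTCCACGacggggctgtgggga
Hsp90b1, chr10:86705518-86705671, minus strand: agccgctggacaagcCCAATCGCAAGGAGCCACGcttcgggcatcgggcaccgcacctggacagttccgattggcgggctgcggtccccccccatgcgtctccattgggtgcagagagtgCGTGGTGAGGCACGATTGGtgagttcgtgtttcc
Creld2, chr15:88819505-88819553, plus strand: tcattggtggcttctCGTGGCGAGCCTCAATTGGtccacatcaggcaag
Pdia6, chr12:17266476-17266524, plus strand: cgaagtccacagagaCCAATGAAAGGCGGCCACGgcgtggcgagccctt
Calr, chr8:84847060-84847108, minus strand: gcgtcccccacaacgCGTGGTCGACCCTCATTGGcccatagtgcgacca
Derl3, chr10:75893227-75893275, plus strand: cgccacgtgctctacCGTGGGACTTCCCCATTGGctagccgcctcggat
Herpud1 (second form), chr8:94386362-94386402, plus strand: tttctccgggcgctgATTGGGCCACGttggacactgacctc
Txndc5 (XBP1 element), chr13:38528030-38528067, minus strand: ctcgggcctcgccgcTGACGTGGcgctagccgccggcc

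The WT library held 8635 barcodes with 32481613 UMIs (unique molecular identifiers, 1 per captured RNA molecule), and the library labelled Elf-1 KO 10012 barcodes with 39750319 UMIs. Filters left 7718 and 9504 cells, with a median depth of 2029.5 and 2638 UMIs, and 57 barcodes occurred in both libraries. Elf1 itself stood at 191.5 counts per 1000000 UMIs (CPM; interval 186.6 to 196.5) in WT and at 180.3 CPM (176.1 to 184.7) in the library labelled Elf-1 KO, with a UMI in 39.21% and 39.91% of cells. Since the deleted part of the gene is not given, these UMIs do not check the label, and every direction below is between 2 libraries as labelled. Ferritin and metallothionein RNA (Fth1, Ftl1, Mt1 and Mt2) took 1.58% of fibroblast UMIs in WT and 8.33% in the labelled knockout. In bulk sums over a class of cells, fewer expressing cells and less RNA per cell cannot be told apart.

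Fibroblasts, the collagen-making cells of the stroma, showed the largest fold between libraries in the members' sum among the 9 classes of at least 100 cells in each. There were 1216 WT fibroblasts (15.76% of kept cells, median 4247.5 UMIs) and 2664 in the labelled knockout (28.03%, median 5814 UMIs). All 16 fibroblast markers were detected in both, at a sum of 37830 and 39580 CPM. The 36 members together stood at 14150 CPM (14051 to 14250) in WT fibroblasts and 7207 CPM (7166 to 7248) in the labelled knockout, a sum 1.96-fold lower (1.95 to 1.98). Of 35 members with at least 50 UMIs over both libraries, called measured from here on, 11 were at least 2-fold lower and 0 at least 2-fold higher, where 13.4% of 11392 measured genes were lower and 3.31% higher by as much. The members' median log2 ratio of labelled knockout over WT was -0.67 (medians of the members' interval bounds, -0.88 to -0.55) and that of all measured genes -0.34. In direction, 33 members were lower and 2, Atf6 and Ero1l, were higher.

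The scale of these ratios depended on the normalisation. TMM scaling, which sets the bulk of genes equal, added 0.38 to every log2 ratio in fibroblasts, so that the median of all genes became 0.04 and that of the members -0.29. Under it 6 members, Hsp90b1, Hyou1, Sdf2l1, Creld2, Pdia4 and Pdia6, remained at least 2-fold lower, beside 6.43% of all genes, and 27 members were lower and 8 higher. Those 8 were Atf6 and Ero1l with Ern1, Xbp1, Herpud1, Dnajb9, Ssr4 and Atf4, and of these the last 6 were lower on plain totals. The members' median lay 0.33 below that of all genes, a gap that adding 1 constant to every ratio cannot change. The folds below are on plain totals.

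**Figure D1:**
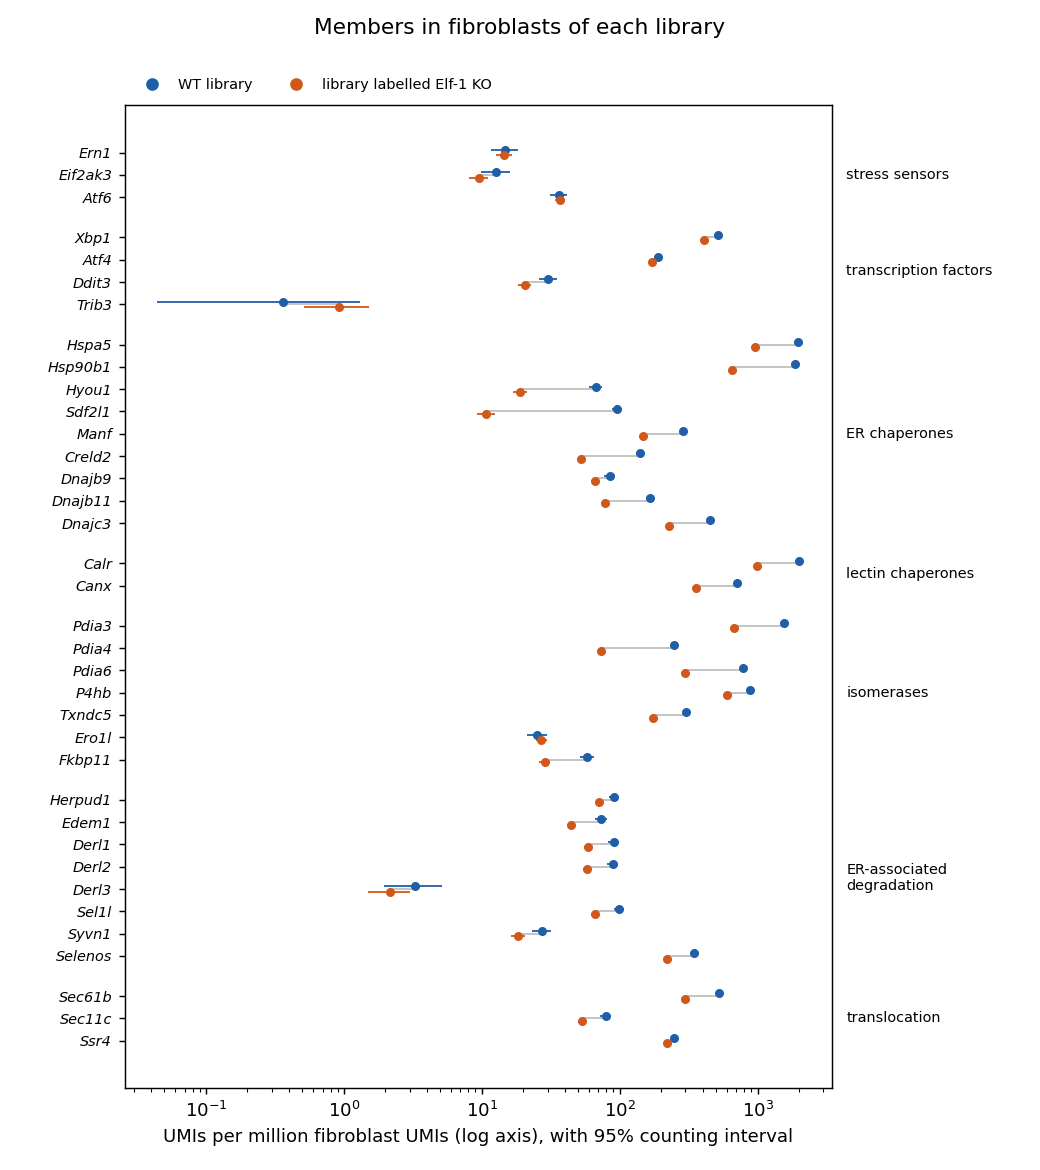
Level of each member in fibroblasts of the WT library (1216 cells) and of the library labelled Elf-1 KO (2664 cells), in CPM on a log axis, with bars for exact Poisson intervals at 95%, ordered by role. The chaperones and isomerases lie farthest apart, with Sdf2l1 at 95.8 against 10.7 and Hsp90b1 at 1859 against 649, while Atf6 (36.2 against 36.9) and Ern1 (14.8 against 14.6) nearly coincide.

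Among the chaperones, Sdf2l1 was farthest from its WT level. Sdf2l1 is an ER protein that works with BiP and its J-domain partners, and its gene lies on chr16:17130138-17132383, minus strand, with no other gene annotated over it. Its level in fibroblasts was 95.8 CPM (87.8 to 104) in WT and 10.7 CPM (9.19 to 12.5) in the labelled knockout, 8.93-fold lower (7.51 to 10.7). A Sdf2l1 UMI was seen in 28.3% of WT fibroblasts (25.8 to 30.9) and 4.81% of labelled knockout fibroblasts (4.02 to 5.69). With every cell thinned to 1000 UMIs, which left out 65 and 143 shallower fibroblasts, the shares were 9.64% and 1.15%. In erythroid cells, which should lack the gene, 0 of 40 WT cells (an upper limit of 8.81%) and 2 of 86 labelled knockout cells held a Sdf2l1 UMI, at medians of 9448 and 6827.5 UMIs. After thinning 1 of 85 labelled knockout erythroid cells held one (1.18%, 0.0298 to 6.38), an interval too wide to set a background for the thinned shares. In UMIs per cell, Sdf2l1 in labelled knockout fibroblasts stood at 9.15 times its lowest mean among that library's named classes of at least 40 cells.

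The remaining chaperones were lower by smaller folds. Hyou1, a large chaperone of the HSP70 family that acts as exchange factor for BiP, stood at 67.0 CPM in WT fibroblasts and 19.0 CPM in the labelled knockout, 3.53-fold lower (3.03 to 4.12). Hsp90b1, which encodes GRP94, the HSP90 of the ER, had 1859 CPM against 649 CPM, 2.87-fold lower (2.79 to 2.95). Creld2, an ER stress-induced protein with isomerase-like activity, had 141 CPM against 52.8 CPM, 2.66-fold lower (2.41 to 2.94). For each of these genes the level was lower in the labelled knockout by far more than counting error. Hspa5, which encodes BiP, the master chaperone that also holds the sensors inactive, had 1961 CPM (1924 to 1998) against 957 CPM (942 to 972), 2.05-fold lower (2.00 to 2.10). Its J-domain partners differed among themselves: Dnajb11 was 2.11-fold lower (166 against 78.5 CPM), Dnajc3 1.999-fold lower, just short of the limit (453 against 227 CPM), and Dnajb9 1.28-fold lower on plain totals only (84.7 against 66.3 CPM). Manf, a secreted stress protein kept in the ER by BiP, had 289 CPM against 148 CPM. In all, 6 of the 9 chaperones were at least 2-fold lower (all genes 13.4%), with a median log2 ratio of -1.08. Their sum was 5116 CPM against 2207 CPM.

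Isomerases and lectin chaperones followed. The protein disulfide isomerases Pdia4 (250 against 73.6 CPM, 3.39-fold lower, 3.14 to 3.67), Pdia6 (785 against 298 CPM, 2.63-fold lower, 2.53 to 2.74) and Pdia3 (1560 against 676 CPM, 2.31-fold lower) form and rearrange disulfide bonds in folding proteins. P4hb, the isomerase that is also a subunit of collagen prolyl hydroxylase, was nearer, at 882 CPM against 602 CPM, 1.47-fold lower (1.42 to 1.52). Fkbp11, a proline isomerase of secretory cells, had 57.9 CPM against 28.6 CPM, and Txndc5, a thioredoxin-domain isomerase, 305 CPM against 176 CPM. Ero1l, the oxidase that recharges the isomerases, went the other way, at 25.1 CPM (21.1 to 29.7) against 27.0 CPM (24.5 to 29.7). Its intervals overlapped on plain totals. In all, 4 of the 7 isomerases were at least 2-fold lower (all genes 13.4%), and their sum was 3865 CPM against 1881 CPM. Calreticulin (Calr) and calnexin (Canx), which retain glycoproteins until they are folded, stood at 1987 against 991 CPM (2.005-fold lower, 1.96 to 2.05) and at 707 against 358 CPM (1.98-fold lower, 1.90 to 2.06).

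Degradation and translocation genes differed less. None of the 8 genes of ER-associated degradation was 2-fold lower (all genes 13.4%), at a median log2 ratio of -0.61. Their sum was 821 CPM against 538 CPM. Edem1, a lectin that hands misfolded glycoproteins to degradation, had 73.6 against 44.4 CPM, Selenos 348 against 219 CPM, and Derl1 and Derl2, of the retrotranslocation channel, 90.3 against 58.9 CPM and 88.9 against 58.1 CPM. The ligase complex pair Sel1l and Syvn1 stood at 99.4 against 66.1 CPM and 27.1 against 18.3 CPM, and Herpud1, which organises that complex, at 91.04 against 71.1 CPM, the nearest of the role at 1.28-fold lower (1.15 to 1.42) on plain totals only. Derl3 had few UMIs, 18 and 35. The translocation genes Sec61b (526 against 300 CPM), Sec11c (79.2 against 53.1 CPM) and Ssr4 (247 against 220 CPM) likewise held none at 2-fold.

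The sensors and their transcription factors were closest to equal. Ern1 stood at 14.8 CPM (11.7 to 18.3) in WT fibroblasts and 14.6 CPM (12.8 to 16.5) in the labelled knockout. Atf6 stood at 36.2 CPM (31.4 to 41.6) and 36.9 CPM (34.03 to 40.0), and Eif2ak3 at 12.8 CPM and 9.56 CPM, 1.33-fold lower with an interval of 0.991 to 1.78. On plain totals the interval of the ratio included equality for each of the 3 sensors. The TMM shift of 0.38 on the log2 scale moves these intervals upward. Xbp1 had 518 CPM (499 to 538) against 405 CPM (396 to 415), 1.28-fold lower (1.22 to 1.34), and Atf4 189 against 171 CPM, 1.11-fold lower (1.03 to 1.19), both on plain totals only. Ddit3, which encodes the death-linked factor CHOP, had 30.2 against 20.5 CPM, 1.48-fold lower (1.22 to 1.78) on plain totals. Trib3, a target of ATF4 and CHOP, was not measured, with 2 and 15 UMIs. Levels of RNA do not report the splicing of Xbp1 or the activity of the sensors. The 9 members with the first stress element had a median of -1.004 on plain totals, with 5 at least 2-fold lower (all genes 13.4%). The other 22 with a window had a median of -0.59, also with 5 at least 2-fold lower.

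Most WT fibroblasts lay in another cluster than most fibroblasts of the labelled knockout. Cluster 6, led by Lpl, Sfrp2 and Wnt4, held 888 WT cells (73.0%) and 14 of the labelled knockout. Cluster 15, led by Il11 and Cxcl5, held 105 WT cells and 1620 of the labelled knockout (60.8%). The summed level was lower in the labelled knockout inside every cluster. It was 14226 against 7186 CPM in cluster 6, 13624 against 7062 CPM in cluster 15, 14495 against 9888 CPM in cluster 20 (Ptn, Thbs2; 63 and 85 cells), 13340 against 6567 CPM in cluster 21 (Mmp13, Mmp10; 39 and 494 cells) and 14336 against 7720 CPM in cluster 23 (Ptx3, Il33; 121 and 451 cells). Within WT the 5 clusters spanned 13340 to 14495 CPM, and within the labelled knockout 6567 to 9888 CPM. The part of the uneven filling of the clusters in the class difference was not tested.

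Counts of members at least 2-fold lower were 14 of 33 measured in cluster 6 (all genes 11.0%), 9 of 34 in cluster 15 (6.8%), 1 of 20 in cluster 20 (5.19%), 12 of 30 in cluster 21 (7.03%) and 13 of 33 in cluster 23 (8.98%). In cluster 6 the labelled knockout had only 14 cells. Of the 14 members lower there, Fkbp11, Derl1, Derl2 and Sec11c had 1 or 2 UMIs in those cells and intervals that included equality. Of the members higher by 2-fold in cluster 6, only Dnajb9 was seen in the labelled knockout, at 293 and 9 UMIs, with an interval of the ratio of 0.990 to 4.21. Ern1 (52 and 0 UMIs) and Syvn1 (102 and 0 UMIs) passed 2-fold only because 0 was taken as 3 in so small a group, and have no direction. The same replacement enters the 25.6% of all genes that were higher by as much there, so that share is not read. Hspa5 was lower in all 5 clusters, by 2.10-fold to 2.43-fold, and Hsp90b1 by 2.00-fold to 3.25-fold. Pdia4 was lower in all 5, by 1.86-fold to 6.85-fold. Sdf2l1 was 8.70-fold lower in cluster 15, 8.61-fold in cluster 21 and 5.61-fold in cluster 23, while in cluster 6 it had 377 UMIs against 0, at least 1.43-fold lower at the limit of the exact interval and 1.77-fold with 0 taken as 3 UMIs over the group, and in cluster 20, with 20 and 2 UMIs, it was not measured. Xbp1 was lower in 2 of the 5 clusters and Ero1l in 0 of the 4 where it was measured.

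**Figure D2:**
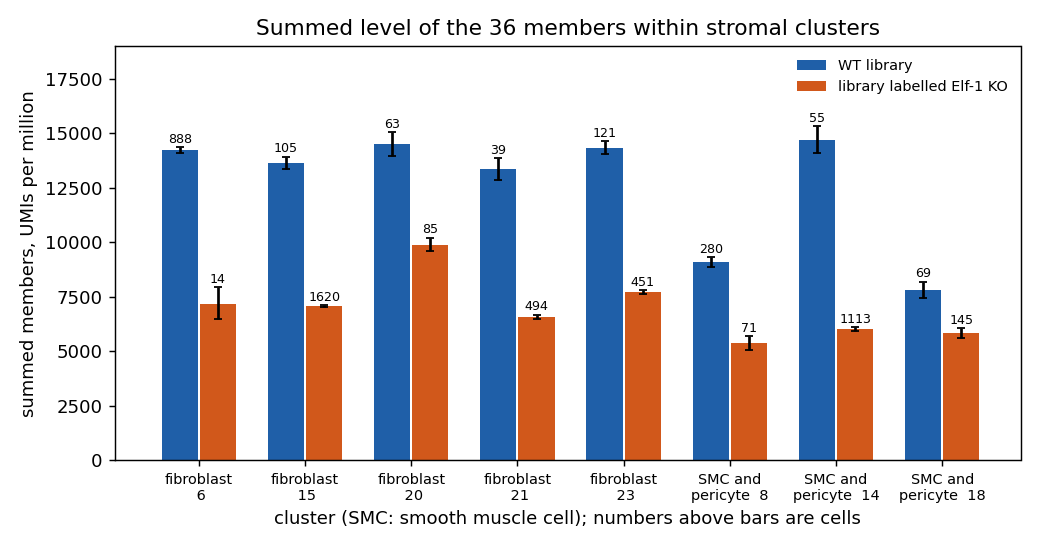
Summed level of the 36 members, in CPM with exact Poisson intervals at 95%, in each fibroblast cluster and each cluster of smooth muscle cells and pericytes, with the number of cells above each bar. WT fibroblast clusters stand between 13340 and 14495 and those of the labelled knockout between 6567 and 9888.

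The rest of the secretory pathway was read from 143 further genes in 7 lists, of which 135 were measured in fibroblasts. Their median log2 ratio was -0.46, with 116 lower against 19 higher in direction. At least 2-fold lower were 10 of the 135 (all genes 13.4%) and 2 were higher (all genes 3.31%), both smaller shares than those of all genes. Other folding enzymes had a median of -0.74 (5 of 29 lower), with Serpinh1, the collagen chaperone HSP47, at 2158 against 667 CPM, 3.24-fold lower (3.15 to 3.32), and Ero1lb at 12.2 against 4.32 CPM. At its other end stood Txndc11 (49.2 against 53.8 CPM) and Tmx1 (67.2 against 60.2 CPM). The oligosaccharyltransferase, which attaches N-glycans, had a median of -0.68 (3 of 12 lower): Magt1 was 3.22-fold lower (109 against 33.8 CPM) and Ostc 2.20-fold lower (308 against 140 CPM), while Tusc3 (76.1 against 72.8 CPM) and Tmem258 (405 against 366 CPM) were near equal.

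Lists farther from folding were nearer to the median of all genes. ER exit and cargo receptor genes had a median of -0.55 (0 of 20 at 2-fold, all genes 13.4% lower). They ran from Kdelr3 (132 against 69.4 CPM) and Sec24a (18.03 against 10.2 CPM) to Sar1b (93.4 against 81.4 CPM) and Tmed2 (239 against 233 CPM). The translocon and signal recognition list had a median of -0.46 (0 of 19), from Tram1 (205 against 122 CPM) and Srprb (54.1 against 34.5 CPM) to Srp19 (116 against 109 CPM) and Sec61g (412 against 435 CPM). Other degradation genes had a median of -0.36 (1 of 18), from Man1b1 (34.2 against 15.1 CPM) and Os9 (239 against 143 CPM) to Ube2j1 (60.3 against 63.0 CPM) and Nploc4 (17.1 against 17.9 CPM). Modulators of the stress response had a median of -0.21 (0 of 14), from Mbtps1 (99.6 against 59.6 CPM) and Wfs1 (34.8 against 21.4 CPM) to Bbc3 (3.82 against 4.01 CPM) and Bax (135 against 168 CPM). The last 2 medians are smaller in size than the TMM shift of 0.38, so their direction holds on plain totals only.

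Targets of the integrated stress response, the PERK and ATF4 arm, stood apart from the chaperones, with a median of -0.04. Among 23, 1 was lower (all genes 13.4%) and 2 were higher (3.31%) by 2-fold. Atf3 (305 against 126 CPM) and Ppp1r15a (255 against 150 CPM), which restarts translation, were lower. Vldlr stood at 6.19 against 16.2 CPM, and the cystine transporter Slc7a11 at 4 UMIs against 339 (0.728 against 20.9 CPM, 28.7-fold higher, 11.1 to 106).

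Other stress-linked RNA differed between the libraries in the same fibroblasts. The 20 cytosolic heat shock chaperones summed to 8230 CPM in WT and 4301 CPM in the labelled knockout. Of the 20, 5 were at least 2-fold lower (all genes 13.4%), and the median was -0.50. Hspa1b (785 against 127 CPM) and Hspa1a (1988 against 412 CPM) were lowest, and Hspa4l (16.9 against 28.9 CPM) and Stip1 (99.4 against 118 CPM) highest. The 14 immediate early genes that dissociation of tissue can induce summed to 18210 and 9919 CPM, with 4 at least 2-fold lower, a median of -0.91, and Fos (3379 against 1178 CPM) and Fosb (306 against 121 CPM) lowest and Btg2 (337 against 283 CPM) and Ier3 (998 against 1130 CPM) highest. By cluster, immediate early genes summed to 18700 and 9491 CPM in cluster 15, 13030 and 10270 CPM in cluster 20, 18240 and 6237 CPM in cluster 21 and 21790 and 13280 CPM in cluster 23. In cluster 6, with its 14 cells of the labelled knockout, they summed to 17730 and 18560 CPM, with a median of -0.18, 8 of 14 lower in direction, and Fosb and Atf3 at least 2-fold lower. Heat shock chaperones were lower in sum in all 5 clusters, at 8057 and 3716 CPM in cluster 6.

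Markers of other cell types in the fibroblasts also differed. The 16 goblet markers summed to 185 CPM in WT (14 detected) and 7.40 CPM in the labelled knockout (6 detected, with Tff3, Fcgbp, Clca1, Zg16 and Spink4 among those at 0), against 113000 CPM in goblet cells. The 20 epithelial markers summed to 495 and 47.2 CPM, the 15 neutrophil markers to 189 and 963 CPM and the 11 plasma cell markers to 4787 and 6327 CPM. The part of these RNAs, of the heat shock and immediate early genes and of the ferritin share in the members' difference was not tested.

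Smooth muscle cells and pericytes, the contractile stroma, also had lower member levels in the labelled knockout. They numbered 404 and 1329 cells, and the 36 members summed to 9582 CPM in WT and 5951 CPM in the labelled knockout, 1.61-fold lower (1.57 to 1.65). The median log2 ratio was -0.51 (-0.73 to -0.29), that of all genes -0.19, and 7 of 32 measured members were at least 2-fold lower (all genes 11.6%). Sdf2l1 was again the lowest, at 60.4 against 14.1 CPM, 4.30-fold lower (2.94 to 6.30). Ddit3 had 68.4 against 21.5 CPM, Pdia4 141 against 55.1 CPM, Hyou1 43.5 against 17.4 CPM, Hsp90b1 1078 against 468 CPM, Pdia6 384 against 180 CPM and Fkbp11 22.2 against 10.5 CPM. Of these 7, all but Ddit3 were also at least 2-fold lower in fibroblasts. Atf6, Syvn1, Xbp1, Dnajb9 and Herpud1 were higher, by 0.14 to 0.22 on the log2 scale.

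TMM scaling shifted this class by 0.31, which left a median of -0.20 beside 0.12 for all genes, with 21 members lower and 11 higher in direction. Under it 4 members, Ddit3, Hyou1, Sdf2l1 and Pdia4, were at least 2-fold lower (all genes 6.55%) and 0 higher (10.0%). Here too the clusters were unevenly filled, with 280 and 71 cells in cluster 8, 55 and 1113 in cluster 14, and 69 and 145 in cluster 18. Summed levels were 9096 against 5378 CPM (7 of 27 members at least 2-fold lower, all genes 13.0%), 14685 against 6009 CPM (15 of 31, 9.63%) and 7797 against 5827 CPM (1 of 18, 8.4%). Beside these, plasma cell markers summed to 2064 CPM in WT and 10950 CPM in the labelled knockout, fibroblast markers to 11990 and 28150 CPM, heat shock chaperones to 8206 and 4142 CPM, and immediate early genes to 16150 and 8354 CPM. Their part in the difference was not tested.

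**Figure D3:**
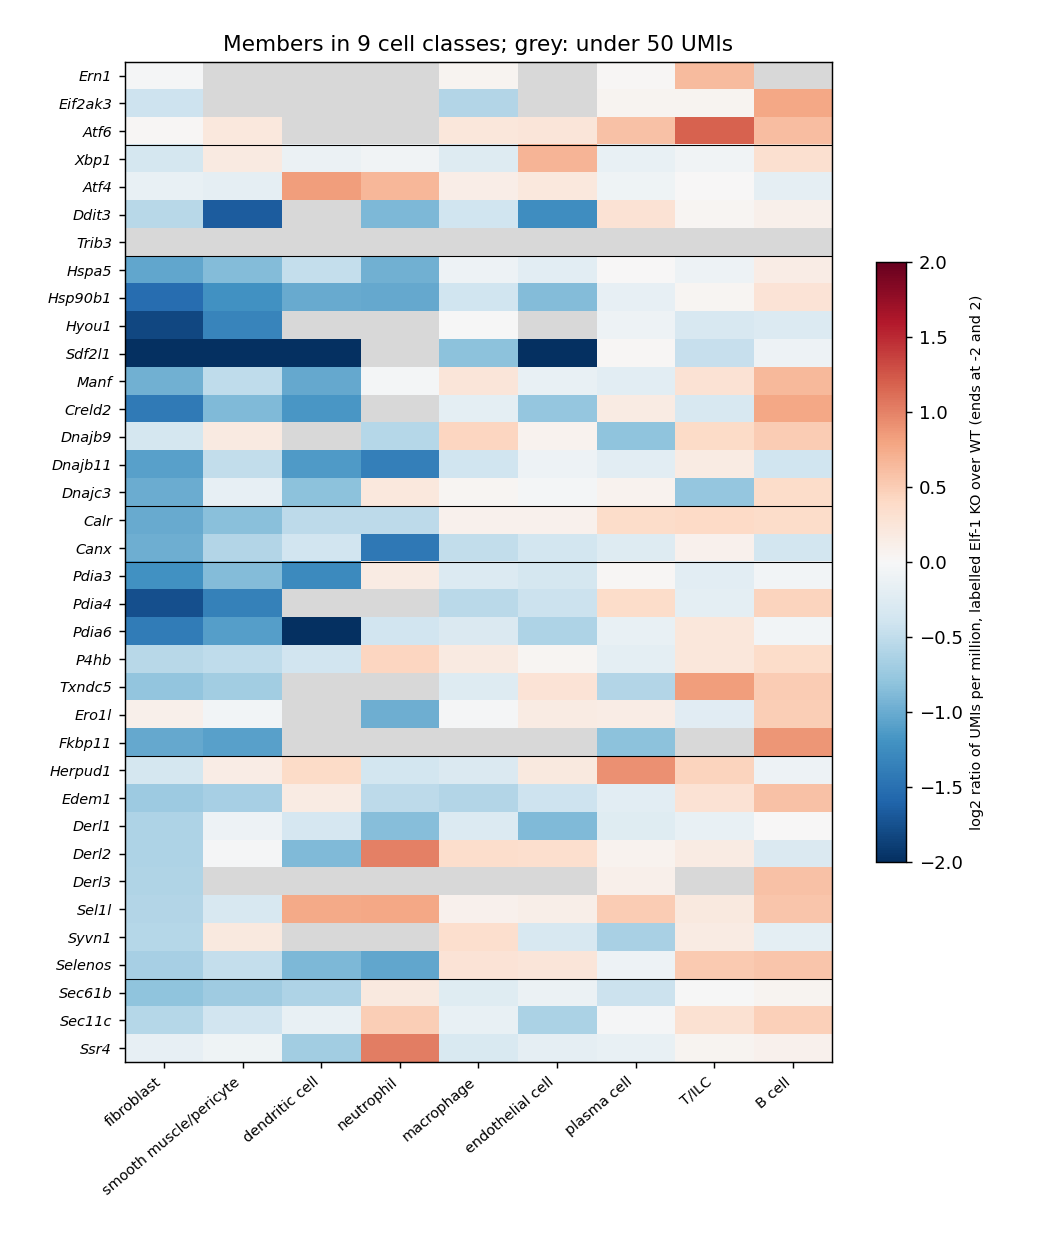
Log2 ratio of the library labelled Elf-1 KO over WT for each member (rows, by role) in 9 classes of at least 100 cells in each library (columns), on plain UMI totals, with grey cells where a member had under 50 UMIs and colours that end at -2 and 2. Many chaperone and isomerase rows are blue in fibroblasts, smooth muscle cells and pericytes, and dendritic cells, with Sdf2l1 lowest (-3.16 in fibroblasts). Not all of them are: Ero1l in fibroblasts and Dnajb9 in smooth muscle cells and pericytes were higher. In plasma, B and T cells 0 members were 2-fold lower (all genes 5.75%, 6.16% and 3.46%).

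Among immune and vascular classes, dendritic cells (136 and 193 cells) came nearest to the stroma. Their members summed to 7839 and 5296 CPM, with a median log2 ratio of -0.62 (-1.02 to -0.18) beside 0.01 for all genes. At least 2-fold lower were 7 of 23 measured members (all genes 7.94%) and 0 were higher (12.1%). Under TMM 5 members were lower by as much (all genes 7.54%). Sdf2l1 had 156 against 29.9 CPM, 5.21-fold lower (2.91 to 10.0), Pdia6 265 against 61.9 CPM, 4.29-fold lower (2.84 to 6.67), and Pdia3 763 against 316 CPM. Creld2, Dnajb11, Manf and Hsp90b1 were 2.01-fold to 2.25-fold lower. In these cells heat shock chaperones summed to 13530 and 4483 CPM and immediate early genes to 18110 and 18030 CPM. Of other cell types, neutrophil markers summed to 622 and 3523 CPM, fibroblast markers to 289 and 1421 CPM, macrophage markers to 1953 and 939 CPM and epithelial markers to 605 and 55.5 CPM. The part of all these RNAs was not tested.

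In the remaining classes few members passed 2-fold. Macrophages and monocytes had a median of -0.19 with 0 of 33 (all genes 6.13% lower). Endothelial cells had a median of -0.13 with 2 of 30 lower (6.59%) and 0 higher (3.84%), Sdf2l1 at 51.1 against 8.77 CPM and Ddit3 at 44.7 against 18.9 CPM, and under TMM their median turned to 0.07. Sdf2l1 was thus at least 4-fold lower in 4 of the 9 classes, whereas in macrophages it stood at 88.0 against 50 CPM. Neutrophils, which carry little ER, had the lowest sums of these classes (2833 and 2133 CPM), 4 members lower (9.49%) and 2 higher (11.3%) of 24, and a median of -0.38. TMM moved that median to -0.004 and turned the counts to 1 lower (Canx; all genes 3.95%) and 4 higher (20.4%). T and innate lymphoid cells had a median of 0.08 (0.004 under TMM), with Atf6 alone of 33 past 2-fold, at 17.8 against 40.1 CPM (5.19% of all genes higher, 3.46% lower). Over all kept cells the members summed to 10173 and 7362 CPM with 3 at least 2-fold lower (18.3% of all genes).

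In B cells the direction depended on the setting. They numbered 2540 and 1010, with sums of 7903 and 9183 CPM. On summed UMIs the median log2 ratio was 0.34 (0.12 to 0.46) with all genes at -0.03, no member of 34 passed 2-fold in either direction (all genes 6.16% lower, 4.06% higher), and 24 were higher and 10 lower. The highest were Fkbp11 (22.1 against 40.8 CPM), Creld2 (113 against 193 CPM) and Eif2ak3 (46.2 against 78.7 CPM). The median was -0.0012 with cells thinned to 1000 UMIs, -0.091 as a mean over cells and -0.79 with the libraries clustered separately. The clusters were also filled differently. Cluster 2 held 43.6% of WT B cells and 90.4% of those of the labelled knockout, cluster 3 44.4% and 5.35%, and cluster 10, a cluster of cycling B cells led by Rgs13 and Pclaf, 11.97% and 4.26% (304 and 43 cells). Medians were -0.10 in cluster 2 and -0.18 in cluster 3. In cluster 10 the sum was 10748 CPM in WT and 20417 CPM in the labelled knockout, 1.90-fold higher (1.85 to 1.95), and 14 of 34 members were at least 2-fold higher (all genes 3.85%). They included Fkbp11 (50.04 against 172 CPM), Selenos (186 against 539 CPM), Creld2 (239 against 679 CPM), Manf (493 against 1390 CPM), Edem1 (215 against 595 CPM), Derl3 (53.0 against 142 CPM), Hsp90b1 (1523 against 3424 CPM) and Xbp1 (449 against 947 CPM). Immunoglobulin RNA took 7.24% and 13.6% of UMIs in these cells. Over all B cells heat shock chaperones summed to 21070 and 6287 CPM, neutrophil markers to 89.4 and 1663 CPM, fibroblast markers to 380 and 1277 CPM and epithelial markers to 653 and 99.4 CPM. The part of these RNAs was not tested.

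Plasma cells, which secrete antibody, were compared with the rest of the colon in each library. There were 327 in WT and 333 in the labelled knockout, at medians of 14451 and 12531 UMIs, and 70.3% and 71.3% of their UMIs were immunoglobulin. All 11 plasma cell markers were detected in both, at 325800 and 345600 CPM. On all UMIs the members summed to 12624 CPM in WT plasma cells and 9711 CPM in the other cells, 1.30-fold higher (1.29 to 1.31), and to 12417 and 6746 CPM in the labelled knockout, 1.84-fold higher (1.82 to 1.86). With immunoglobulin UMIs taken out of the totals these folds were 4.31 (4.28 to 4.35) and 6.32 (6.26 to 6.38). The other cells were mixed differently in the 2 libraries. B cells were 32.9% of kept cells in WT and 10.6% in the labelled knockout, epithelial cells 13.8% and 0.737%, neutrophils 2.15% and 13.3%, and fibroblasts 15.8% and 28.0%. The part of this mix in the folds was not tested. On average a WT plasma cell held 183 UMIs of the members. All other WT cells pooled held 33.2 per cell, at a median depth of 1949 UMIs. Kinds within that pool differed, with 183 in undifferentiated or cycling epithelial cells, 175 in goblet cells and 63.9 in fibroblasts.

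The scale decided how many members were higher in plasma cells. On all UMIs 11 of 35 were at least 2-fold higher in WT (1.49% of all genes) and 7 lower (91.8%), and in the labelled knockout 15 of 36 higher (2.21%) and 3 lower (85.9%). On non-immunoglobulin UMIs 27 of 35 (5.86%) and 31 of 36 (11.0%) were at least 2-fold higher and 0 lower (44.6% and 34.3%). Derl3, a derlin of specialised secretory cells, was the most enriched, at 182 CPM against 8.40 CPM in WT (21.6-fold, 18.6 to 25.3) and 194 against 4.63 CPM in the labelled knockout (41.9-fold, 35.3 to 50.2). A Derl3 UMI was seen in 68.8% of plasma cells of both libraries, in 1.15% and 0.826% of fibroblasts and in 0 of 40 and 0 of 86 erythroid cells, which allows up to 8.81% and 4.2%.

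Other enriched members spanned degradation, translocation and the regulator itself. Edem1 stood at 555 against 94.5 CPM in WT (5.87-fold) and 477 against 67.2 CPM in the labelled knockout (7.10-fold). Xbp1 stood at 1638 against 313 CPM (5.23-fold, 5.07 to 5.40) and 1477 against 344 CPM (4.30-fold, 4.17 to 4.44). The signal peptidase subunit Sec11c had 721 against 215 CPM (3.36-fold) and 712 against 108 CPM (6.60-fold). Creld2 was 4.74-fold and 9.64-fold higher, Sdf2l1 2.55-fold and 10.7-fold, Herpud1 2.45-fold and 8.02-fold, and Pdia4 2.15-fold and 5.56-fold. In these 4 the cells other than plasma cells stood lower in the labelled knockout. Plasma cells of that library also stood higher than those of WT for Herpud1 (1.89-fold), Pdia4 (1.29-fold) and Creld2 (1.12-fold), with Sdf2l1 close (224 and 228 CPM). Folds were closer between the libraries for Ssr4 (2.99-fold and 3.24-fold), Txndc5 (3.27-fold and 2.88-fold) and Fkbp11 (3.11-fold and 3.35-fold). The intervals for Txndc5 did not overlap (3.10 to 3.44 in WT, 2.71 to 3.06 in the labelled knockout).

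Not all members were enriched there on all UMIs. Canx was 4.59-fold and 4.12-fold lower in plasma cells than in other cells, P4hb 2.73-fold and 3.17-fold, Pdia3 3.72-fold and 2.22-fold, and Atf4 2.08-fold and 1.83-fold. Calr was 2.35-fold and 1.35-fold lower and Derl2 2.24-fold and 1.76-fold. Ddit3 was 2.40-fold lower in WT and 1.18-fold higher in the labelled knockout. On non-immunoglobulin UMIs Canx remained lower, at 0.723 and 0.834 times the level of other cells. Pdia3 was then at 0.893 times in WT and 1.545 times in the labelled knockout, and P4hb at 1.22 and 1.08 times. Hspa5 was 1.14-fold lower in WT plasma cells on all UMIs (1548 against 1765 CPM) and 1.38-fold higher in the labelled knockout (1560 against 1128 CPM), its level in plasma cells being close in the 2 libraries and that in other cells not.

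**Figure D4:**
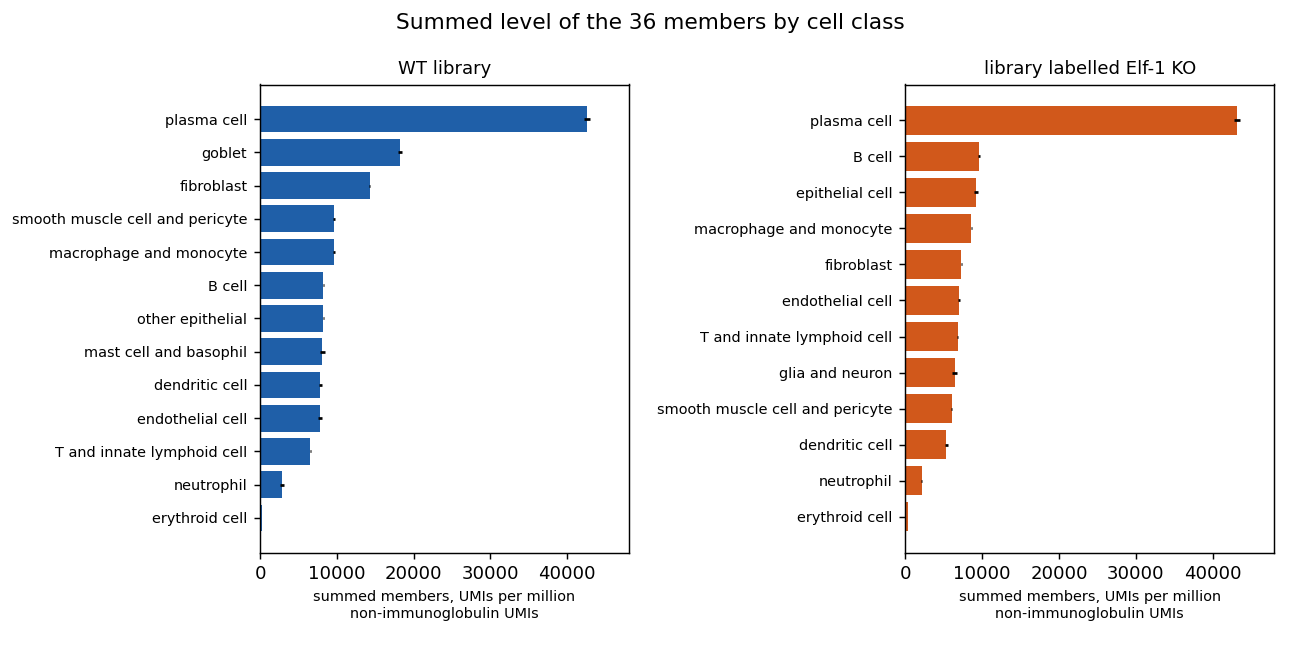
Summed level of the 36 members per 1000000 non-immunoglobulin UMIs in each cell class of at least 40 cells, WT and library labelled Elf-1 KO, with exact Poisson intervals at 95%. Plasma cells stand at 42559 and 43211, WT goblet cells at 18244 and fibroblasts at 14280 against 7286.

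Ordered by that non-immunoglobulin sum, WT classes of at least 40 cells ran from plasma cells (42559 CPM) through goblet cells (18244 CPM) and fibroblasts (14280 CPM) to smooth muscle cells and pericytes (9619 CPM) and macrophages (9581 CPM), whose intervals overlapped. B cells, epithelial cells other than goblet cells, and mast cells followed at 8231, 8222 and 8098 CPM with overlapping intervals, then dendritic and endothelial cells (7872 and 7809 CPM, overlapping), T cells (6573 CPM), neutrophils (2851 CPM) and erythroid cells (249.5 CPM). In the labelled knockout plasma cells again led (43211 CPM), followed by B cells (9602 CPM) and epithelial cells (9264 CPM), whose intervals overlapped. Macrophages (8617 CPM) and fibroblasts (7286 CPM) came next. The B cell sum there rested much on cluster 10, whose 43 cells held 8062 of the 15518 member UMIs of B cells. On the same scale cluster 10 stood at 23639 CPM, cluster 2 at 5883 CPM and cluster 3 at 5556 CPM. With epithelial cells other than goblet cells left out, plasma cells had the highest level of 28 of the 36 members among 12 WT classes and of 33 among 11 classes in the labelled knockout. On all UMIs goblet cells led for 14 members in WT, plasma cells for 10 and fibroblasts for 6. In the labelled knockout plasma cells led for 17, B cells for 5, glia and neurons for 4 and endothelial cells for 3. Fibroblasts, macrophages, and T and innate lymphoid cells there led for 2 each.

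Between the libraries, plasma cells differed far less than fibroblasts. Their members summed to 12624 CPM (12524 to 12726) and 12417 CPM (12309 to 12525), and on plain totals 0 of 35 measured members were 2-fold lower or higher (all genes 5.75% lower, 5.04% higher). The median log2 ratio was -0.09 (-0.26 to 0.06) with all genes at -0.05, and 19 members were lower and 16 higher, or 18 and 17 under TMM, which shifted ratios by 0.05. On totals without immunoglobulin, mitochondrial, ribosomal and haemoglobin UMIs, which shifted them by 0.13, the median turned to 0.04, 15 members were lower and 20 higher, and Herpud1 passed 2-fold. Hspa5 stood at 1548 CPM (1513 to 1584) and 1560 CPM (1522 to 1599), and Sdf2l1, 8.93-fold lower in fibroblasts, at 224 CPM (211 to 238) and 228 CPM (214 to 243). Xbp1 stood at 1638 and 1477 CPM and Hsp90b1 at 1648 and 1479 CPM. No difference between the 2 classes' ratios was tested, since each rests on the same 2 libraries.

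Single members still differed in plasma cells. Herpud1 was the highest, at 504 CPM (484 to 524) in WT and 954 CPM (924 to 984) in the labelled knockout, 1.89-fold higher (1.80 to 1.99). It was followed by Atf6 (52.7 against 79.4 CPM, 1.51-fold, 1.28 to 1.79), Sel1l (93.3 against 133 CPM, 1.43-fold, 1.26 to 1.62), Calr (516 against 666 CPM), Pdia4 (299 against 386 CPM) and Ddit3 (39.4 against 48.1 CPM, an interval of 0.993 to 1.498). At the low end Fkbp11 had 109 against 61.8 CPM, 1.76-fold lower (1.51 to 2.05), Dnajb9 129 against 73.8 CPM, 1.75-fold lower (1.52 to 2.02), and Syvn1 83.0 against 53.2 CPM, 1.56-fold lower (1.32 to 1.85). Txndc5 (512 against 340 CPM), Sec61b (451 against 336 CPM) and Canx (86.4 against 72.1 CPM) completed it. Herpud1 and Sel1l, partners of the ligase Syvn1 in one degradation complex, were thus higher where Syvn1 was lower.

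Plasma cells were also split by the isotype that held over 50% of their heavy chain constant gene UMIs. IgA cells numbered 291 and 316 and had sums of 11200 and 12186 CPM, with a median log2 ratio of 0.03 and Herpud1 at 471 against 965 CPM, 2.05-fold higher (1.94 to 2.16; all genes 5.28% at least 2-fold higher). In IgA cells Hspa5 stood at 1198 against 1519 CPM, 1.27-fold higher (1.22 to 1.32), Creld2 at 407 against 556 CPM and Hsp90b1 at 1251 against 1445 CPM, so that Hsp90b1, lower over all plasma cells, was higher among IgA cells. IgG cells, 34 and 13, had sums of 29938 CPM (29376 to 30507) and 18240 CPM (17568 to 18931), and WT held 0 IgM cells against 4. In CPM the members thus stood higher in the IgG cells of each library than in its IgA cells.

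Of the wider lists in plasma cells, cytosolic heat shock chaperones were the lowest, with a median of -1.51 and 12 of 18 at least 2-fold lower, Hspa1b (273 against 13.2 CPM) and Hspa1a (1265 against 90.7 CPM) lowest, and a sum of 4644 against 1076 CPM. The members did not share this difference. Integrated stress response targets had a median of 0.55 with 7 of 21 at least 2-fold higher, Sesn2 (2.32 against 9.56 CPM) and Mthfd2 (7.16 against 26.0 CPM) highest and Ppp1r15a lowest (236 against 157 CPM). Over all 143 further pathway genes the median was -0.04. Of 120 measured, 1 was at least 2-fold lower, Rnf5 (25.7 against 11.0 CPM), and 8 were higher (all genes 5.75% lower, 5.04% higher). Translocon, oligosaccharyltransferase and ER exit lists had medians of -0.23, -0.30 and -0.26, and other folding, other degradation and modulator lists -0.03, 0.10 and 0.10, with Rtcb, the ligase that joins spliced Xbp1, at 10.5 against 23 CPM. Immediate early genes had a median of -0.54 with 3 of 14 lower and sums of 15170 and 9949 CPM. In these cells macrophage markers summed to 3682 and 1596 CPM and fibroblast markers to 176 and 464 CPM, and their part was not tested.

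Goblet cells, which secrete mucin, could be described in WT only: 121 cells were found there and 0 in the labelled knockout, where epithelial cells numbered 70 in all. Their 16 markers were all detected and summed to 113000 CPM. They were set against the other 946 WT epithelial cells, at medians of 5066 and 1966.5 UMIs and of 3.44% and 7.70% mitochondrial UMIs. Of those 946 cells, 775 were of no named epithelial kind, at a median of 1540 UMIs and 9.54% mitochondrial UMIs. The members summed to 18177 CPM (17934 to 18424) in goblet cells and 8171 CPM (8098 to 8245) in the others, 2.23-fold higher (2.19 to 2.26). The fold was 2.40 with cells thinned to 1000 UMIs and 2.13 with cells limited to 10% mitochondrial UMIs. Of 34 measured members 22 were at least 2-fold higher (5.75% of all genes) and 0 lower (15.0%), and the median log2 ratio was 1.19 with all genes at -0.24.

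**Figure D5:**
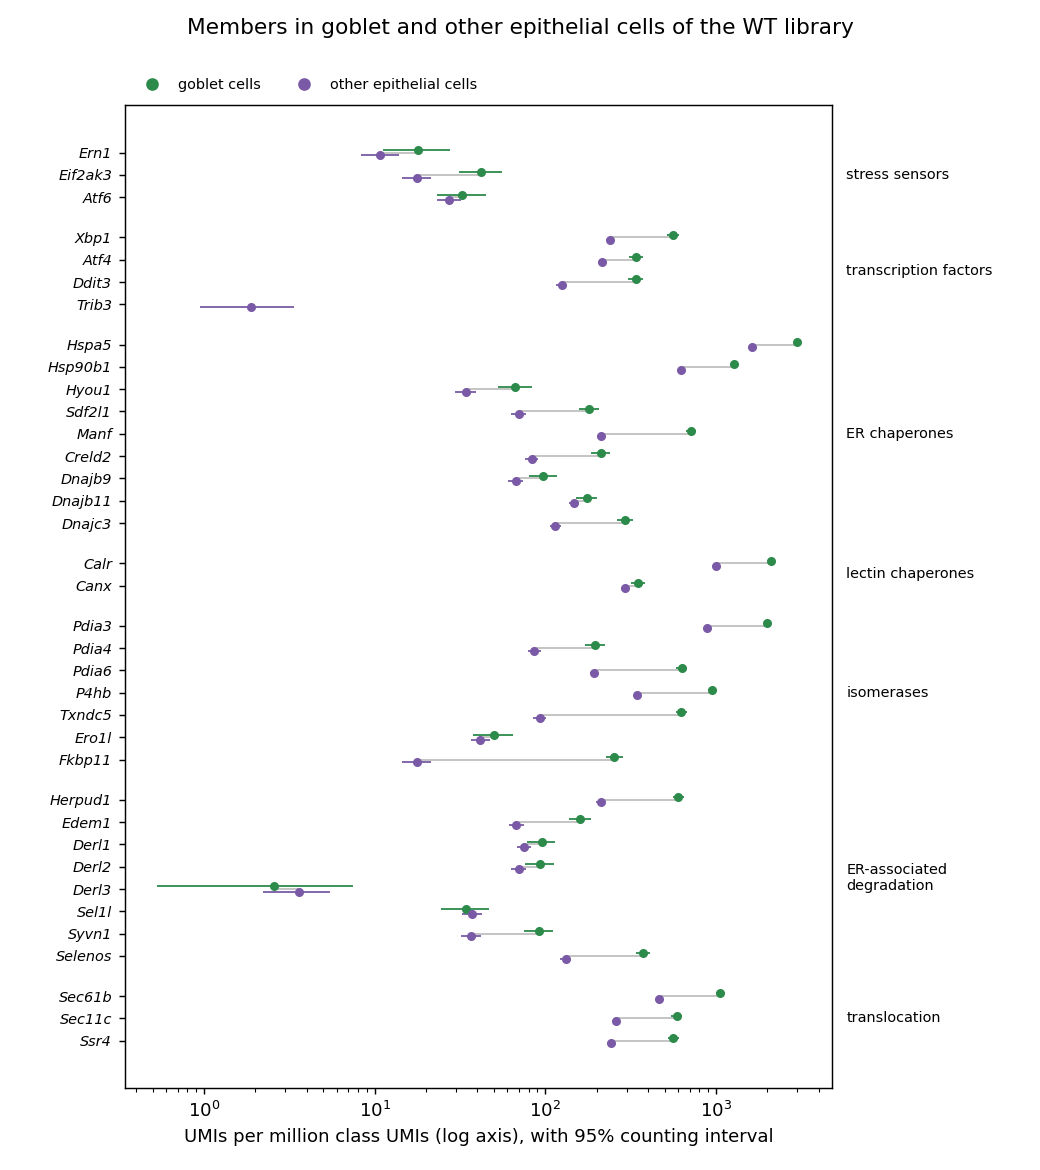
Level of each member in 121 WT goblet cells and 946 other WT epithelial cells, in CPM on a log axis with exact Poisson intervals at 95%. Fkbp11 (254 against 17.7) and Txndc5 (628 against 92.6) lie farthest apart. Sel1l (34.3 against 37.1) is the 1 measured member below the other cells, with an interval of the ratio that includes equality.

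The isomerases led this set, with 6 of 7 at least 2-fold higher (all genes 5.75%). Fkbp11 stood at 254 CPM in goblet cells and 17.7 CPM in other epithelial cells, 14.3-fold higher (11.4 to 18.1). Txndc5 followed at 628 against 92.6 CPM, 6.78-fold higher (6.06 to 7.59), and Pdia6 at 631 against 193 CPM, 3.27-fold higher (2.98 to 3.60). P4hb had 952 against 345 CPM, and Ero1l, at 49.7 against 41.6 CPM, was the isomerase-linked member that did not reach 2-fold. Fkbp11 and Txndc5 were also among the members enriched in plasma cells of both libraries.

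Chaperones were higher by less, 5 of 9 at 2-fold (all genes 5.75%). Manf stood at 712 against 211 CPM, 3.37-fold higher (3.08 to 3.68), and Sdf2l1 at 181 against 69.7 CPM, 2.59-fold higher (2.19 to 3.07). Hspa5 was the most abundant member in UMIs, at 3000 against 1622 CPM, 1.85-fold higher (1.78 to 1.92), and Hsp90b1 had 1282 against 622 CPM. Calr was 2.10-fold higher, whereas Canx (351 against 293 CPM) was not. Herpud1 (601 against 211 CPM, 2.85-fold, 2.595 to 3.13) and Selenos (373 against 131 CPM, 2.84-fold, 2.52 to 3.20) led the degradation genes, of which 4 of 7 measured passed 2-fold. All 3 translocation genes did, by 2.26-fold to 2.33-fold.

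Several regulators were higher in goblet cells as well. Xbp1 stood at 561 against 240 CPM, 2.33-fold higher (2.12 to 2.56), Ddit3 at 339 against 125 CPM, 2.71-fold higher (2.39 to 3.07), and Eif2ak3 at 42.0 against 17.7 CPM, 2.38-fold higher (1.65 to 3.37). Ern1 (18 against 10.8 CPM) and Atf6 (32.6 against 27.3 CPM) had intervals that included equality. Sel1l, at 34.3 against 37.1 CPM, was the only measured member lower in direction in goblet cells. Its interval also included equality. Derl3, the gene most enriched in plasma cells, had 3 UMIs in goblet cells and Trib3 had 0, and neither was measured. Enteroendocrine cells, the hormone-secreting epithelium and the one epithelial kind with cells in both libraries in number (24 and 54), had sums of 11057 and 9318 CPM.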

How the data were processed

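The authors' deposited files hold raw UMI counts per gene and barcode, 1 matrix per library, with no normalization. Per the submitters' processing notes, cutadapt 1.17, STAR 2.6.1a and featureCounts 2.0.1 were used with GRCm38. Whether counting used strand is not stated in the sources at hand, and 15 of the 36 members overlap another gene of the GENCODE M21 annotation (7 on the same strand, 13 on the other), where reads may be shared.

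Cells needed 500 UMIs and 200 genes, and no more than 25% of UMIs from mitochondrial genes. Doublets were called with scrublet in scanpy 1.11.5 (expected rate 0.06), which marked 2.3629% of barcodes in the library labelled Elf-1 KO (230 removed) and 0.0246% in WT, where the 5% of barcodes with the highest scores (406) were removed instead. Both libraries were clustered together (2000 variable genes, 30 principal components, 15 neighbours, Leiden resolution 1.0, igraph 0.11.9), with 491 technical genes and 176 genes, the members and pathway lists, left out, so that the members did not set the classes. Clusters were named from marker lists. The rule for names was chosen with the clusters in view, since a first rule left fibroblast clusters 15 and 21 and B cell cluster 10 unnamed. Rebuilt names may differ from the study's own.

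UMIs were summed over the cells of a class in each library and given as CPM with exact Poisson intervals. Ratios carry exact conditional binomial intervals and shares of cells exact Clopper-Pearson intervals (scipy 1.17.1), all at 95%, and a gene needed 50 UMIs over both groups to be measured. In a ratio a count of 0 was taken as 3. The interval code was tested on simulated data. TMM factors came from edgeR 4.0.16, and promoter windows from RefSeq (GRCm38.p6). A share of 0 carries its exact upper limit.

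The members, lists and comparisons were chosen with earlier results of these data known. All members are described by role, with the 6 highest and 6 lowest ratios in fibroblasts and plasma cells, the 6 highest in goblet cells, and the 2 highest and 2 lowest of each other list in fibroblasts. Alternatives concerned scaling, totals, depth, doublets, the mitochondrial limit, clustering, free RNA and the count minimum.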

Additional observations from a re-analysis of the deposited data

How the results depend on the processing

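With 1 library per group no setting gives a test, and all values remain differences between 2 libraries whose intervals leave out the spread between mice, which was not measured. No paired analysis was possible because each group has 1 library. Of the values recomputed for the main comparisons, 67 moved by less than the interval or stayed within 1.5 times the count and 20 moved. Of the 67, 1 changed sign: the median in plasma cells, -0.09 with an interval that includes 0, was 0.04 on totals without immunoglobulin, mitochondrial, ribosomal and haemoglobin UMIs. Among the other values 359 stayed within those limits, 36 moved and 3, all B cell medians, reversed. Among single members in fibroblasts, Atf6 turned from 0.03 to -0.49 and Ero1l from 0.10 to -0.19 with cells thinned, and Ern1 from -0.02 to 0.54. In fibroblasts the members' median log2 ratio of -0.67 became -0.29 under TMM, -0.88 with cells thinned to 1000 UMIs and -0.90 with doublets kept, and the count of 11 members at least 2-fold lower became 6 under TMM. The 2 alternatives chosen after seeing the data changed it little: without cluster 6 the median was -0.69 with 10 members lower (328 and 2650 cells), and with clusters 6, 20 and 23 alone -0.76 with 11 (1072 and 550 cells). In plasma cells the count of 0 members at least 2-fold lower became 2 with cells thinned and 2 as a mean over cells. Plasma cells over other cells, 1.30-fold in WT, was 4.06-fold on totals without immunoglobulin, mitochondrial, ribosomal and haemoglobin UMIs, 1.60-fold thinned, 1.70-fold as a mean over cells and 1.28-fold with a mitochondrial limit of 10%. The same fold in the labelled knockout, 1.84, was 6.46, 2.17 and 2.17 under the first 3 of these, 1.99 with the libraries clustered separately and 1.91 with a bound on free RNA subtracted. Goblet cells over other epithelial cells, 2.23-fold, was 2.14-fold on those totals, 2.40-fold thinned, 2.42-fold as a mean over cells, 2.10-fold with doublets kept and 2.13-fold with the 10% limit. In B cells the median of 0.34 turned to -0.0012 thinned, -0.091 as a mean over cells and -0.79 with the libraries clustered separately. The cause of these moves was not tested. Clustered separately, WT plasma cells merged with erythroid cells and stayed unnamed, so that this setting gave no WT or between-library plasma value.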
